A study of Homo sapiens with 24 samples.

Results

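Long noncoding genes that carry small nucleolar RNAs (snoRNAs) in their introns were examined, 10 in all: GAS5, SNHG1, SNHG5, SNHG6, SNHG8, SNHG12, SNHG15, SNHG16, ZFAS1 and EPB41L4A-AS1. Every splice-site row on the strand and within the GENCODE span of one of these 10 genes was taken, which gave 1363 of 1823643 rows, and at gene level 10 of 11355 genes. The samples were HCT-116 cells, a human colorectal carcinoma line, which overexpressed PHF5A from a lentiviral cDNA, either wild type (WT) or with tyrosine 36 changed to cysteine (Y36C). PHF5A is a subunit of SF3b, the part of the U2 snRNP that holds the branch point, and E7107 is a pladienolide derivative that binds SF3b. Each line was given E7107 or its solvent DMSO, which makes 4 groups of 6 samples and 24 samples in all. Poly(A) RNA was sequenced. The labels state neither dose nor exposure time. The methods give an exposure of 6 h, and name doses of E7107 without saying which samples had which. They say that each treatment was done 6 times but not whether from separate cultures. The p-values thus measure only the spread between these samples. No expression level is in the files, so neither the cell line nor the transgene could be checked against them. In bulk RNA, a PSI does not tell a change in all cells from a change in a part of them, and it says nothing about the amount of RNA.

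A snoRNA host gene is transcribed and spliced like a messenger RNA, but the product with the known function lies in the intron. The excised intron is debranched and trimmed to a snoRNA, which guides 2′-O-methylation (C/D box class) or pseudouridylation (H/ACA class) of other RNAs, above all ribosomal RNA. The joined exons form a noncoding RNA that is often short-lived, and for some hosts, GAS5 among them, nonsense-mediated decay is known to remove it.

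By name, RefSeq (GRCh38.p14) lists 36 snoRNAs inside these 10 genes. GAS5 holds 11 (for example SNORD44, SNORD47 and SNORD74 to SNORD81), SNHG1 holds 9 (SNORD22 and SNORD25 to SNORD31 among them), SNHG12 holds 4, SNHG16 and ZFAS1 hold 3 each and SNHG5 holds 2. SNHG6, SNHG8, SNHG15 and EPB41L4A-AS1 each hold 1, namely SNORD87, SNORA24, SNORA9 and SNORA13. On GRCh37, the build of the files, the annotation at hand placed 7 of the 36 (19.4%), so a split of introns into those with and without a snoRNA is void and was not made.

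The measure was percent spliced in (PSI): the reads of 1 junction, or of the unspliced exon-intron boundary, as a percent of all reads at a splice site. The boundary PSI is the retention at that site. An intron was called used where its junction PSI averaged at least 30% over the DMSO samples at both ends, which left 48 introns: 11 in GAS5, 9 in SNHG1, 5 each in SNHG5 and ZFAS1, 4 each in SNHG15 and SNHG16, 3 each in SNHG6 and SNHG12, and 2 each in SNHG8 and EPB41L4A-AS1. Used introns were numbered in transcript order and their retention is the mean of both ends. All 48 began with GT and ended with AG.

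Sequences are given for 3 of the introns that moved most, since the results below return to them (GRCh37, transcribed strand, 5′ to 3′; capitals mark the first and last 2 bases and, where found, the C/D box letters described below). The first rose most in WT cells, the second fell most there, and the third fell most in Y36C cells.
SNHG1 used intron 1, chr11:62622689-62622895, minus strand: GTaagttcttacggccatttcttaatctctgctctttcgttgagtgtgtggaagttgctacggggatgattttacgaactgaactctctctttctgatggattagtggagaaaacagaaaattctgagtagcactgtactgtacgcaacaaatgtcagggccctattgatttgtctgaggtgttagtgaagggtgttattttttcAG
SNHG5 used intron 3, chr6:86387594-86387671, minus strand: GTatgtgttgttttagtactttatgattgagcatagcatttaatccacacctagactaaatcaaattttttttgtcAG
SNHG1 used intron 5, chr11:62621306-62621489, minus strand: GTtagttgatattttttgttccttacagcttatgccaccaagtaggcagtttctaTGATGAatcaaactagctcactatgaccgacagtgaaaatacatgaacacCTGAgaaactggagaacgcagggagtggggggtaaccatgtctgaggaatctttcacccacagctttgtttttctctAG

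The exons passed over by the pair of skipping junctions that moved most in Y36C cells are shown in capitals, with 40 intron bases before and 10 after in lower case. They come from SNHG1 and from SNHG5, where the exons are neighbours.
SNHG1 exon between used introns 2 and 3, chr11:62622350-62622450, minus strand: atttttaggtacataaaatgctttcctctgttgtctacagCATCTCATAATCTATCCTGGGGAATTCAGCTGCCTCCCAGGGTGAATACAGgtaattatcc
SNHG5 exon between used introns 2 and 3, chr6:86387662-86387790, minus strand: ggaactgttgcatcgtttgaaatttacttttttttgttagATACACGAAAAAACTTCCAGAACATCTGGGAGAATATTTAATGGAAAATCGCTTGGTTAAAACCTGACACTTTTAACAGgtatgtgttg
SNHG5 exon between used introns 3 and 4, chr6:86387503-86387633, minus strand: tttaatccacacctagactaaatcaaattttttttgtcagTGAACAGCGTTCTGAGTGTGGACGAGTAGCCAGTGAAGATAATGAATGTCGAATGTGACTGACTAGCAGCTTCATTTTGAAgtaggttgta

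The C/D box letters searched were TGATGA followed, 35 to 95 bases later, by CTGA, on the transcribed strand only. They were present in 23 of the 48 used introns, 8 of them in GAS5, 5 in ZFAS1 and 4 in SNHG1. Among used introns of 100 to 1000 bases the share was 44.7% (17 of 38), and among all 122519 annotated introns of that length it was 3.17%. A match marks these letters and not a placed snoRNA. The median retention change of E7107 in WT cells was 28.4 percentage points over the 23 introns with the letters and 30.7 over the 25 without.

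Without drug, the 2 lines were compared to ask whether the mutant protein alone alters these genes. Boundary reads took a larger share in the hosts than in most genes in both lines: the median gene retention over the 10 genes was 27.7% in WT DMSO and 26.3% in Y36C DMSO, against 3.599% and 3.33% over all 11355 genes. Gene retention is the mean over all annotated intron ends of a gene that had reads in every sample, seldom used ends included. Some of these ends lie outside the used introns, where boundary reads can be exon reads. The SNHG1 acceptor at base 62620131, past its last used intron, was at 99.2% in WT DMSO. The level of gene retention thus depends on which ends are annotated and is not that of introns alone. Over the 48 used introns alone the median was 10.5% in WT DMSO and 10.6% in Y36C DMSO, and no such median was computed over all genes. Between the lines, none of the 10 genes was called by limma with a threshold of 0.05 on the adjusted p (0.581% of all genes were), and 1 of 10 had an unadjusted p under 0.05, against 14.0% of all genes. None of 121 boundaries was called (background 0.0977%), and 27 of them had an unadjusted p under 0.05 (22.3%, against 7.91% of all boundaries). Of 199 spliced rows tested, 3 were higher and 2 lower in Y36C cells, against a background of 0.203% called in either direction.

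E7107 was then compared with DMSO in WT cells, the line without mutated PHF5A. The Y36C line was made by adding the mutant cDNA to parental cells. For that line the paper reports the mutant as most but not all of the PHF5A mRNA. Gene retention rose in 7 of the 10 hosts, GAS5, SNHG1, SNHG12, SNHG15, SNHG16, ZFAS1 and EPB41L4A-AS1, and fell in SNHG6 and SNHG8 (limma on log odds, adjusted over all genes). Across all genes, 70.9% rose and 7.34% fell. Overlap between groups, given for single genes below, was not counted over all genes. Over the 10 hosts the median change was 27.4 percentage points, against 7.12 over all genes tested, and on the log odds scale the medians were 1.28 and 0.98. Fewer splice sites had reads in the WT E7107 samples (median 282785.5, against 337968.5 in WT DMSO), and the part of this in the values was not tested.

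**Figure D1:**
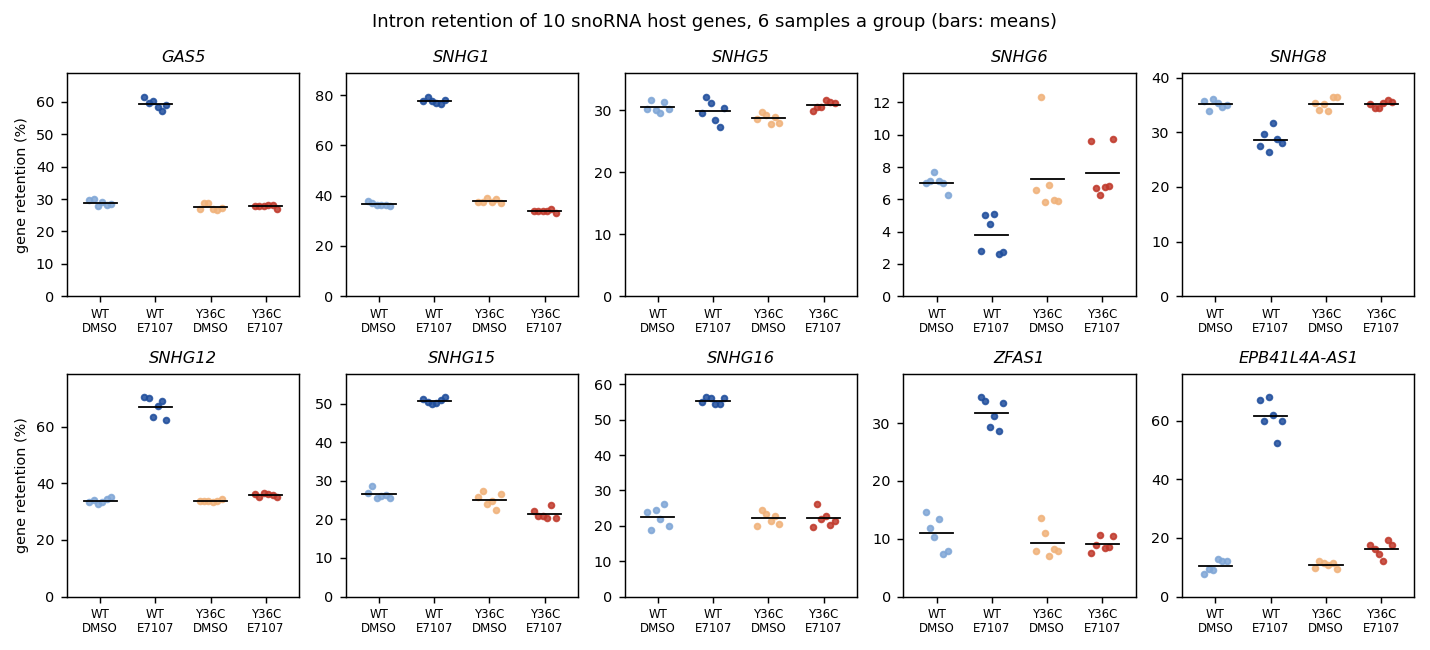
Gene retention in percent (vertical axis, starting at 0, scaled for each gene) in each of the 24 samples, by genotype and treatment; bars are group means. In 7 genes the 6 WT E7107 samples lie above all other samples, in SNHG6 and SNHG8 they lie below the WT DMSO samples, and in SNHG5 they overlap them. The share of all genes that separate in this way was not computed.

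SNHG1, whose introns hold a run of C/D box snoRNAs, had 36.1, 36.4 and 37.9% retention (lowest, median and highest sample) in WT DMSO and 76.6, 77.7 and 79.2% in WT E7107. The change of 41.1 percentage points was 1.75 ± 0.038 (SE, n = 6 and 6) in log odds, with an adjusted p of 6.9e-13 (limma). All 6 treated samples were above all 6 controls. EPB41L4A-AS1, host of SNORA13, moved further: it was at 7.63, 10.7 and 12.9% in WT DMSO and at 52.4, 61.1 and 67.9% in WT E7107 (limma, adjusted p = 1.14e-09). Its change of 51.0 percentage points exceeded that of 93.7% of all genes.

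GAS5, a host named for its rise in growth-arrested cells, went from 28.0, 28.7 and 29.9% to 57.2, 59.4 and 61.5%. SNHG12 was at 32.6, 33.9 and 35.3% without drug and at 62.3, 68.1 and 70.4% with it. In SNHG16, which hosts the SNORD1 snoRNAs, the values were 18.9, 22.9 and 26.1% before and 54.4, 55.5 and 56.3% after. These changes of 30.5, 33.1 and 32.8 percentage points left no overlap between the groups. SNHG15 (24.2 percentage points) and ZFAS1, host of the SNORD12 family (20.9), also rose without overlap.

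SNHG5, SNHG6 and SNHG8 did not follow the others. SNHG5 gene retention was 29.5, 30.1 and 31.7% in WT DMSO and 27.3, 29.9 and 32.1% in WT E7107, with overlapping groups and an adjusted p of 0.556 (limma). SNHG6 was at 6.25, 7.07 and 7.69% without drug and at 2.60, 3.66 and 5.08% with it, every treated sample below every control. SNHG6 fell by 3.24 percentage points (limma, adjusted p = 0.000356), a change lower than that of all but 4.57% of genes, but the sign turned to a rise of 1.00 percentage point when each sample's mean was taken over whatever boundaries had reads in it, and with all boundary rows in the span the change of -2.62 was not called. SNHG8 fell by 6.44 percentage points at gene level, from 34.0, 35.2 and 36.1% to 26.5, 28.4 and 31.8%, without overlap, but with each sample's own boundaries the change was -0.431 and not called. Its first used intron rose by 6.74 percentage points, and its second changed by 2.09 and was not called. The largest fall lay at an annotated acceptor at chr4 base 119200098, which went from 80.1 to 48.9%. This acceptor lies upstream of used intron 1 and is not an end of a used intron.

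Intron by intron, both ends rose in 37 of the 48 used introns under E7107 in WT cells and both fell in 5. In SNHG16 and ZFAS1 some used introns share a splice site, so the same boundary counts for more than 1 intron there. Used introns were defined in these 10 genes only, so no share over all genes was computed. All 11 used introns of GAS5, all 9 of SNHG1, and all of SNHG12, SNHG15, SNHG16 and EPB41L4A-AS1 had both ends higher, as did 3 of 5 in ZFAS1 and 1 of 2 in SNHG8. The 5 with both ends lower were all 3 used introns of SNHG6 and used introns 3 and 4 of SNHG5. Of the 121 boundaries of the 10 genes, 88 were higher and 16 lower, against backgrounds of 50.9% and 4.7%. All 121 boundaries with reads in every sample passed the filter on low values.

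Among the used introns of SNHG1, the highest retention under E7107 in WT cells was in intron 1, shown in full above, which went from 22.1 ± 1.91% (SD, n = 6) to 83.1 ± 1.33%. The last used intron, of 129 bases, went from 9.998 to 56.3%. The single boundary that moved most in this gene was the acceptor of used intron 4, from 18.8 to 82.6%. SNHG12 had a larger step, at an annotated acceptor at chr1 base 28907159, from 16.1, 19.7 and 21.8% to 92.0, 94.4 and 97.9%. At another annotated acceptor of SNHG12, base 28906100, the boundary PSI fell from 76.0 to 55.7% with the drug. Neither acceptor is an end of a used intron. Base 28907159 lies within the 670-base exon between used introns 1 and 2, and base 28906100 lies between used introns 2 and 3. Boundary reads at such sites can be exon reads, so these 2 values are not the retention of a used intron.

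GAS5 introns differed in their level without drug. Used introns 1 to 6 were between 3.56 and 18.6% in WT DMSO, used introns 7 to 10 between 27.6 and 44.1%, and used intron 11 at 14.7%. Under E7107 used introns 2 to 11 reached 47.7 to 64.0% and used intron 1 reached 33.6%. The rise was smallest, 18.8 percentage points, in used introns 9 and 10, which flank an exon of 23 bases.

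SNHG5 used intron 3, of 78 bases, fell from 18.0, 21.8 and 23.3% in WT DMSO to 7.64, 9.82 and 13.7% in WT E7107. At its donor the log odds fell by 0.93 (SE 0.14, limma adjusted p = 0.000123). Used intron 4 of this gene fell from 14.7 to 8.81%. Used introns 2 and 3 of SNHG6 went from 9.43 to 3.08% and from 9.20 to 2.60%, and none of the treated samples overlapped the controls. The acceptors of used introns 1 and 5 of SNHG5 rose, by 9.39 and 7.53 percentage points, and SNHG5 used intron 1 is the single used intron of the 48 whose ends lie in an exon of another annotated gene (ENSG00000271793, same strand).

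**Figure D2:**
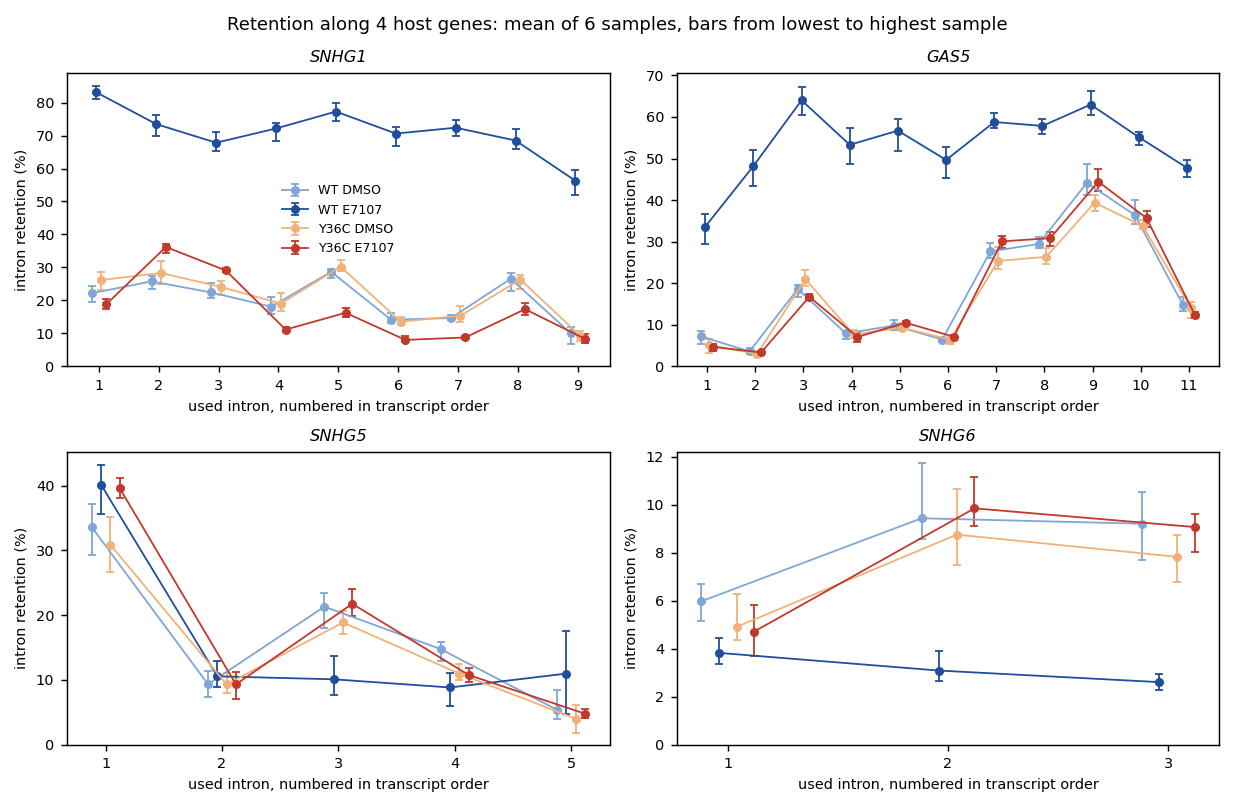
Retention in percent (vertical axis, from 0) of each used intron of SNHG1, GAS5, SNHG5 and SNHG6, in transcript order (horizontal axis); points are means of 6 samples and bars run from the lowest to the highest sample. WT E7107 lies far above the other groups along SNHG1 and GAS5, and below them along SNHG6 and at used intron 3 of SNHG5.

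Intron features were weakly related to these changes. Across the 48 used introns, Spearman's rho with the WT change was -0.02 for intron length (78 to 8474 bases), 0.11 for GC content (27.9 to 58.3%), 0.04 for the pyrimidine share of the last 30 bases before the AG, and 0.19 for retention in WT DMSO. These are descriptions: the introns share genes, libraries and in places a splice site.

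E7107 was next compared with DMSO in Y36C cells, to see what of the response remained. No host rose by more than 5.37 percentage points at gene level. Gene retention rose in SNHG5, SNHG12 and EPB41L4A-AS1 and fell in SNHG1 and SNHG15, whereas GAS5, SNHG6, SNHG8, SNHG16 and ZFAS1 were not called. Among all genes 44.4% rose and 0.995% fell. With each sample's own boundaries, SNHG1 (-2.02), SNHG12 (3.61) and EPB41L4A-AS1 (1.23 percentage points) were no longer called. The median change over the hosts was 0.17 percentage points (log odds 0.01), against 1.01 (log odds 0.23) over all genes.

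EPB41L4A-AS1 had the largest remaining rise, from 9.31, 11.04 and 12.1% in Y36C DMSO to 12.1, 16.8 and 19.1% in Y36C E7107, with a narrow overlap between the groups. SNHG12 went from 33.4, 33.7 and 34.4% to 35.1, 35.9 and 36.7%, a small step without overlap. SNHG5 was also a little higher, at 27.8, 28.7 and 29.6% before and 29.9, 30.8 and 31.6% after. Retention in GAS5 (27.5 and 27.8%), SNHG16 (22.1 and 22.1%), ZFAS1 (9.28 and 9.05%), SNHG6 (7.25 and 7.66%) and SNHG8 (35.2 and 35.2%) overlapped between the groups. SNHG15, called lower, also overlapped: it was at 22.5, 25.2 and 27.3% before and at 20.2, 20.9 and 23.8% after.

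SNHG1 was lower with the drug than without it. It was at 37.2, 37.5 and 38.9% in Y36C DMSO and at 33.2, 33.9 and 34.7% in Y36C E7107, and fell by 3.92 percentage points with no overlap (log odds -0.17 ± 0.027 SE, limma adjusted p = 0.000306). Both ends were lower in 6 of its 9 used introns: 1 and 4 to 8. Used intron 5, shown above with its box letters in capitals, went from 28.9, 29.7 and 32.3% to 14.999, 16.2 and 17.6%. Used intron 6 went from 13.5 to 7.99% and used intron 7 from 15.3 to 8.74%.

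Of the 121 host boundaries, 28 were lower and 20 higher in Y36C cells under E7107. Across all boundaries the shares were 0.436% lower and 11.5% higher, and SNHG1 held 16 of the 28 lower ones. GAS5 had 4 higher and 2 lower of 27, ZFAS1 2 higher and 3 lower of 10, and SNHG15 0 higher and 2 lower of 9. In SNHG15, used intron 3 was at 29.5% without drug and at 21.9% with it, and of its ends the acceptor was called. In SNHG12, both ends of used intron 2 were higher, and the intron went from 12.9, 16.7 and 17.8% to 24.9, 26.7 and 30.5%. The third higher boundary of SNHG12 was the acceptor at base 28907159, from 23.9 to 31.3%.

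**Figure D3:**
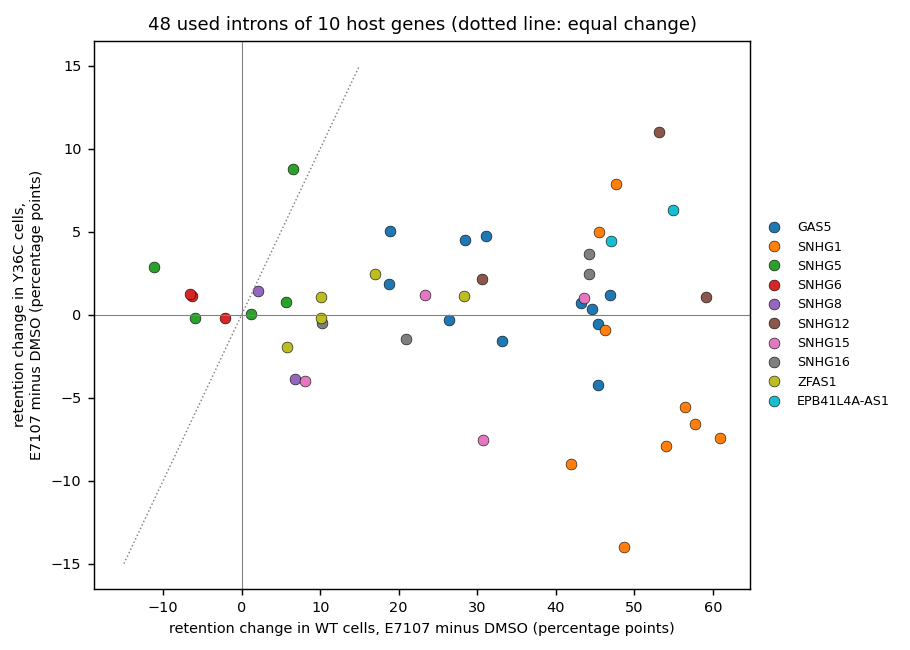
Retention change of E7107 against DMSO in WT cells (horizontal axis) and in Y36C cells (vertical axis), in percentage points, for the 48 used introns, 1 point each, coloured by gene; the dotted line marks equal change. Points spread from -11.2 to 61.0 in WT cells and from -14.0 to 10.97 in Y36C cells, and the lowest points on the vertical axis belong to SNHG1 and SNHG15.

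Whether the response differed between the lines was then tested with an interaction term over all 24 samples. The E7107 change was lower in Y36C cells for 7 hosts and higher for SNHG5, SNHG6 and SNHG8, so that all 10 were called (background 59.6% lower and 12.7% higher). With each sample's own boundaries the SNHG6 difference turned to -0.644 and that of SNHG8 (2.34 percentage points) was not called, and with all boundary rows in the span that of SNHG6 (3.36) was not called. For SNHG1 the E7107 change in Y36C cells was 45.0 percentage points below that in WT cells, a difference of -1.92 ± 0.041 (SE) in log odds with an adjusted p of 5.51e-21 (limma). Of 121 boundaries, 87 had a lower and 14 a higher change in Y36C cells (background 41.8% and 6.85%). Both ends were lower in the interaction in 39 of the 48 used introns and higher in 3, with no share over all genes computed. Under E7107 itself, gene retention was lower in Y36C than in WT cells in 7 hosts and higher in 2, SNHG6 and SNHG8, against 64.1% and 14.4% of all genes. With each sample's own boundaries SNHG5 was also called, 16.2 percentage points higher in Y36C cells, and SNHG8 (5.40) was not called.

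Spliced rows show where the reads of a splice site went instead. The 48 used introns have 96 such rows, 1 per end, and all 96 passed the filter. In WT cells the PSI of 79 fell and that of 8 rose, and in Y36C cells 46 fell and 15 rose. For these 96 rows no share over all genes was computed. Over all 199 host rows tested, 57 rose and 102 fell in WT cells (background 5.56% and 32.0%), and 62 rose and 54 fell in Y36C cells (background 5.92% and 12.6%). In the interaction 116 were higher and 43 lower (background 27.4% and 7.13%). A row that is high only under the drug can pass the filter on mean PSI through that group. Without this filter, 103 of 613 host rows rose and 105 fell in WT cells (background 2.59% and 13.6%), 76 rose and 52 fell in Y36C cells (background 2.8% and 4.7%), and in the interaction 128 were higher and 78 lower (background 12.6% and 3.41%).

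Rows that skip a used exon were also examined without the filter. There were 190 such rows among the 613, and a junction can give 1 row at each of its ends. Used introns that themselves pass over an exon were not counted among them. In WT cells 67 rose and 0 fell, and in Y36C cells 39 rose and 0 fell (limma). In the interaction, the change in Y36C cells was the higher for 17 rows and the lower for 44. No share was computed over the skipping rows of all genes, so these counts cannot be set against other genes. A row near 0 without drug has little room to fall. The single junctions below were picked for the size of their change in either line, so their tests are not independent of that choice.

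SNHG1 gave the largest skip. The junction from the donor of used intron 2 to the acceptor of used intron 3 passes over the 51-base exon shown above (chr11:62622360-62622410). Its PSI at the donor was 11.1, 15.3 and 17.3% in Y36C DMSO and 66.6, 67.3 and 71.2% in Y36C E7107. In WT cells the same junction was at 16.4, 20.4 and 22.7% without drug and at 27.5, 29.1 and 31.3% with it. The change was 52.8 percentage points in Y36C cells and 9.48 in WT cells, and the interaction was 1.91 ± 0.14 (SE) in log odds (limma, adjusted p = 3.29e-10).

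Retention at the ends around this exon moved with the skip. At the acceptor before the exon it rose from 29.6 to 54.0% in Y36C cells, and at the donor after it from 22.9 to 40.9%. At the outer pair of ends, which the skipping junction uses, retention fell from 27.05 to 18.4% and from 25.2 to 17.2%. Reads of the skipping junction are counted at the outer ends and not at those of the exon, so the percentages at the inner ends have a smaller total.

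SNHG5, whose gene retention over the boundaries read in all samples hardly moved, also changed its splicing in Y36C cells. The junction from the donor of used intron 2 to the acceptor of used intron 4 passes over the exons of 79 and 81 bases shown above. At the acceptor its PSI was 3.49, 4.68 and 6.46% in Y36C DMSO and 44.4, 45.9 and 48.3% in Y36C E7107. In WT cells it went from 2.05, 2.80 and 3.38% to 4.79, 5.49 and 7.02%. The groups did not overlap in either line, and the interaction was 2.04 ± 0.14 in log odds (limma, adjusted p = 1.37e-10).

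GAS5 and SNHG6 had skips of the same kind. The 23-base exon of GAS5 was passed over in 3.91, 5.33 and 6.65% of reads at the donor of used intron 9 in Y36C DMSO and in 20.0, 20.8 and 22.3% in Y36C E7107. In WT cells these values were 4.90, 6.02 and 6.79% and then 4.63, 6.37 and 7.32%, with overlap (limma, adjusted p = 0.792). For a 69-base exon of SNHG6, skipping went from 4.05 to 22.9% in Y36C cells and from 5.34 to 7.46% in WT cells.

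In SNHG12, SNHG15, ZFAS1 and EPB41L4A-AS1 the change in the skip was lower in Y36C than in WT cells (interaction called). The 70-base exon between used introns 2 and 3 of SNHG15 was skipped in 9.08 and 42.6% (WT DMSO and E7107) and in 9.79 and 31.1% (Y36C DMSO and E7107). A skip of ZFAS1 over exons of 86 and 62 bases went from 10.8 to 28.9% in WT and from 13.2 to 21.9% in Y36C cells. EPB41L4A-AS1 had its 73-base exon skipped in 0.235 and 24.9% in WT cells and in 0 and 9.08% in Y36C cells, where all 6 DMSO samples were listed at 0. SNHG12 (670-base exon) went from 0.528 to 6.74% in WT cells and from 0.444 to 0.807% in Y36C cells, the latter not called (limma, adjusted p = 0.553). The 43-base exon of SNHG8 was skipped in at most 3.85% in any sample, with no difference called between the lines (limma, adjusted p = 0.314). SNHG16 had no row in this class. Its used intron 2 passes over the exon between used introns 1 and 3 but was counted as a used intron, as was ZFAS1 used intron 4, which passes over the 62-base exon.

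**Figure D4:**
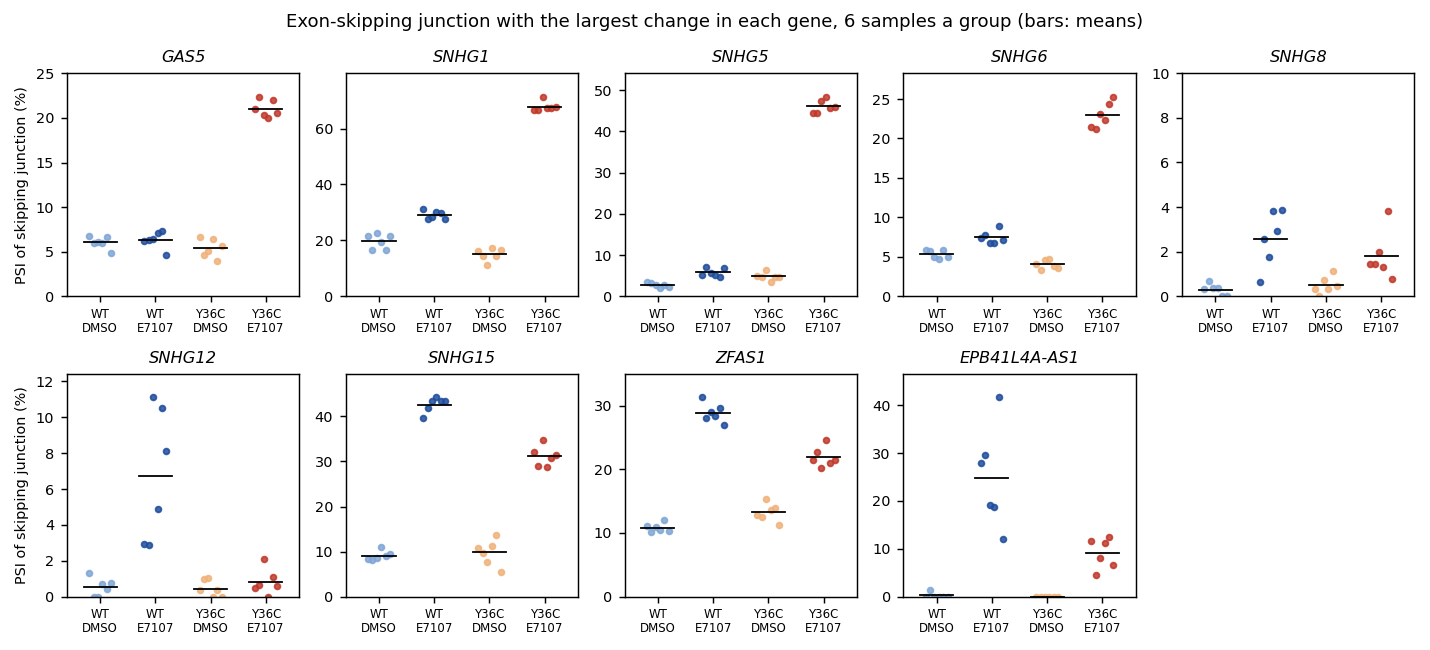
PSI in percent (vertical axis, from 0, scaled for each gene) of the exon-skipping junction with the largest change in each gene, in each of the 24 samples by group; bars are means. In GAS5, SNHG1, SNHG5 and SNHG6 the Y36C E7107 samples lie far above the other groups, whereas in SNHG15, ZFAS1 and EPB41L4A-AS1 the WT E7107 samples are highest on average.

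Other snoRNA hosts were read for comparison. Of 13 further noncoding hosts with a value (of 15 listed), 10 rose and 1 fell in WT cells (70.9% and 7.34% of all genes did), with a median change of 15.4 percentage points. In Y36C cells 0 of the 13 rose and 2 fell (SNHG19 and SNHG32), against 44.4% and 0.995% of all genes. SNHG3 went from 10.4 to 61.1% and SNHG7 from 30.2 to 80.1% in WT cells, and the gene that fell was SNHG29, from 28.8 to 24.9%. All 32 protein-coding hosts, which include ribosomal protein and ribosome biogenesis genes, rose in WT cells, by a median of 11.6 percentage points and by at least 3.51. In Y36C cells 11 of the 32 rose, against 44.4% of all genes, and 1, RPL21, fell, against 0.995%. PPAN, a ribosome biogenesis factor, had the widest change in WT cells, from 2.94 to 87.0%.

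By the root mean square distance of their 4 group means from the medians of the 10 hosts, the nearest genes of the series were IRF2BP2 (1.91 percentage points), CLDND1 (2.31), ENSG00000241860 (2.33), MST1P2 (2.69) and ENTR1 (2.70). IRF2BP2, for example, went from 24.5 to 53.9% with the drug in WT cells and from 24.6 to 24.1% in Y36C cells.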

How the data were processed

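Reads from 24 poly(A) RNA-seq samples were aligned to hg19 with STAR by the authors (version not given in the sources used here), who turned junction counts into PSI and deposited it as a percent per splice site, 1 file per sample. Read depth is not in the files, so it is unknown for each PSI and no interval is given. Mitochondrial rows and rows without strand were left out (6433 of 1830076), and a site summing to 0 was treated as missing. Of 636130 sites, 207244 had reads in all 24 samples. Genes and introns came from GENCODE v44lift37. Whether the library kept strand is not given in the sources used here, so reads from a gene and an antisense partner could not be told apart.

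limma 3.58.1 (R 4.3.3) was fitted to the natural log of (PSI + 1)/(101 - PSI), an offset of 1 percentage point on both sides, on the 12 samples compared or on all 24 for the interaction. Rows needed reads at the site in all 24 samples and a mean PSI of at least 1%, and genes at least 2 such boundaries. Benjamini-Hochberg adjustment ran over every row of the table, with a threshold of 0.05. This fit was first tested on simulated data with known changes. Alternatives were other offsets, PSI itself as response, a replicate block, trended variance, a change of at least 10 percentage points, other filters and other sets of boundaries.

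The members and lists were chosen with earlier results of these data known, and used introns were defined after the values were seen. Named items were the 10 genes, per gene the annotated boundaries with the highest and the lowest signed change in WT cells (the most positive and the most negative or least positive), the skipping row with the largest change in either line, 2 lists of other hosts and the 5 nearest genes. Sequences of introns were chosen among used introns, since too few snoRNAs could be placed, and some sequences are not reported here. The exons and the single introns described were picked after their values were seen.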

Additional observations from a re-analysis of the deposited data

Results flagged for a closer look

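E7107 responses that differed between the lines by the interaction test (limma, all 24 samples) were marked in 34 of 39 results examined. Each value is the WT change subtracted from the Y36C change, in percentage points. The boundaries were picked on their WT change and the junctions on their change in either line, so for these the difference is not independent of the choice. For gene retention it was -30.2 in GAS5, -45.0 in SNHG1, -31.1 in SNHG12, -27.9 in SNHG15, -32.8 in SNHG16, -21.1 in ZFAS1 and -45.6 in EPB41L4A-AS1, and 2.77 in SNHG5, 3.65 in SNHG6 and 6.37 in SNHG8.

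For the boundary with the highest signed change in WT cells it was -47.9 in GAS5, -71.6 in SNHG1, -12.2 in SNHG8, -68.1 in SNHG12, -58.5 in SNHG15, -60.2 in SNHG16, -80.0 in ZFAS1 and -56.6 in EPB41L4A-AS1. ZFAS1 had the widest gap of these: its donor at chr20 base 47895276 went from 19.9 to 84.5% in WT cells and from 24.1 to 8.71% in Y36C cells. This donor lies inside used intron 1 and is not an end of a used intron. Reads spliced at other donors are not counted there. The donor of used intron 1 itself went from 8.80 to 34.9% in WT cells and from 8.60 to 11.8% in Y36C cells. For the boundary with the lowest signed change in WT cells, a fall in SNHG5, SNHG6, SNHG8 and SNHG12, it was 11.9 in SNHG5, 8.93 in SNHG6, 37.5 in SNHG8, 11.97 in SNHG12, -21.0 in SNHG15, -11.1 in SNHG16, -5.56 in ZFAS1 and -33.1 in EPB41L4A-AS1.

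For the skipping junction it was 15.4 in GAS5, 43.3 in SNHG1, 38.2 in SNHG5 and 16.8 in SNHG6, and -5.85 in SNHG12, -12.2 in SNHG15, -9.41 in ZFAS1 and -15.6 in EPB41L4A-AS1. The 4 positive values belong to junctions used more in Y36C than in WT cells under the drug.

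A sample far from the other 5 of its group was found in 10 of 156 sets of 6, and chance alone marks about 5% of them. In gene retention, replicate 6 of Y36C E7107 was at 27.1% in GAS5, where the others lay from 27.9 to 28.2%, and replicate 2 of Y36C DMSO was at 12.3% in SNHG6, where they lay from 5.82 to 6.91%. That replicate was also at 37.5% at the SNHG6 boundary with the highest signed WT change, itself not called, where the others did not exceed 9.09%. Among other boundaries, GAS5 had 85% in replicate 3 of WT DMSO, SNHG1 had 98.7% in replicate 3 of Y36C DMSO, SNHG16 had 15.3% in replicate 2 of WT E7107 and 3.90% in replicate 4 of Y36C DMSO, and EPB41L4A-AS1 had 7.62% in replicate 4 of Y36C E7107. Among skipping junctions, SNHG1 had 71.2% in replicate 3 of Y36C E7107 and EPB41L4A-AS1 had 1.41% in replicate 2 of WT DMSO, where the others were at 0.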

How the results depend on the processing

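Over 120 counts of called host genes or rows under other settings, 109 stayed within 1.5 times the main count. Gene retention in Y36C cells (5 called) gave 3 with the replicate number as a block, where SNHG5 and SNHG12 lost their call, 2 with each sample's own boundaries and 0 with a change of at least 10 percentage points. Over all genes these settings called 4677 higher and 97 lower of 11355, 2322 and 79 of 12716, and 368 and 3 of 11355. A minimum change of 10 percentage points also lowered the host count in Y36C cells to 11 of 121 boundaries and 52 of 199 spliced rows. In WT cells it left 104 spliced rows. Over all boundaries in Y36C cells 8388 were then higher and 202 lower of 165744. Of all 298945 spliced rows, 5808 were higher and 16943 lower in Y36C cells, and 6695 and 63439 in WT cells. For spliced rows in the DMSO comparison (5 called) that minimum change left 1, and an offset of 0.1 and the replicate block left 0 each. No filter on mean PSI or a minimum of 5% left 3 each. Over all 298945 rows the first 3 settings left 80 higher and 130 lower, 197 and 170, and 3 and 2. The last 2 left 218 and 204 of 634324, and 253 and 272 of 233637. Samples with equal replicate numbers did not deviate together across boundary rows (0 of 36 pairs correlated over 0.1). Scatter at single boundaries can hide a shared deviation, so this does not show that a number carries nothing shared. The replicate block left all other counts within 1.5 times. The direction of SNHG6 retention in WT cells rests on the choice of boundaries: each sample's own boundaries gave 1.00 percentage point and an interaction of -0.644. The same setting reversed uncalled or small changes in Y36C cells to -0.41 in GAS5, 1.91 in SNHG8 and -2.75 in SNHG16, and under DMSO to 0.205 in GAS5, -1.42 in SNHG1, 0.379 in SNHG5, 4.03 in SNHG6, 1.40 in SNHG12 and 1.90 in SNHG16. SNHG6 under DMSO also changed sign with an offset of 5 or PSI as response (0.215) and with all boundary rows in the span (1.65). The cause was not tested. Of 1087 settings of single genes, boundaries and skips, 1011 kept direction and side of the threshold, 55 lost the call, 7 gained it and 14 reversed. Read depth is unknown, so ends with few reads cannot be told from ends with many.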
